A study of Mus musculus with 2 samples.

Results

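The miR-15 family was described in the left cerebral cortex through its 7 genes Mir15a, Mir16-1, Mir15b, Mir16-2, Mir195a, Mir497 and Mir322, taken by their GENCODE M21 names from 2202 counted microRNA genes. The tissue came from female B6CASTF1/J mice aged 25 days, an F1 cross of a laboratory strain with a wild-derived strain. Small RNAs under 30 nt were sequenced from 2 libraries, labelled as biological replicates 1 and 2 of 1 group, so no treatment or genotype was compared. The labels number the animals separately but give both the same donor record, so the spread between these libraries may be technical. The p-values below cover counting error only and measure neither that spread nor variation between animals.

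MicroRNAs of this family load into Argonaute proteins and pair through a shared seed, bases 2 to 8 of the mature strand, with messages for G1 cyclins, cyclin-dependent kinases and the survival protein BCL2. They are known as brakes on the cell cycle. Human MIR15A and MIR16-1 are lost in chronic lymphocytic leukaemia, and in the mouse heart the miR-15 family is known for its part in the postnatal halt of cardiomyocyte division. Mouse Mir322 corresponds to human MIR424.

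The mature 5p strands are shown because the family is defined by their seed, in capitals here. RefSeq on GRCm38.p6 held both arms of all 7 genes, and every arm lay inside its M21 hairpin.
mmu-miR-15a-5p: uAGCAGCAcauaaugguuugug
mmu-miR-15b-5p: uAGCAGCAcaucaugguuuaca
mmu-miR-497a-5p: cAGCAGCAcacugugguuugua
mmu-miR-16-5p, from both Mir16-1 and Mir16-2: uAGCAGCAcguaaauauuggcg
mmu-miR-195a-5p: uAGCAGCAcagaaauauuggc
mmu-miR-322-5p: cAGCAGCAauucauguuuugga

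All 7 genes thus carry the seed AGCAGCA, and the strands part after it. The 5p strands of Mir15a, Mir15b and Mir497 share the run UGGUUU, and those of Mir16-1, Mir16-2 and Mir195a share the run AAAUAUUGGC. Both runs were picked after the sequences were read, and only the strand of the mature RNA was searched. Of 1674 distinct mature sequences in the RefSeq table, 20 (1.19%) held the first run and 2 (0.119%) the second. The first 3 genes are called the Mir15 type below and the others the Mir16 type, while Mir322 held neither run. Counting from 1 at the 5′ end, mmu-miR-195a-5p differed from mmu-miR-16-5p by G10A and U11G over 21 nt. mmu-miR-15b-5p differed from mmu-miR-15a-5p by A12C, G20A, U21C and G22A.

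The genes lie at 4 places on mm10, and 3 of these hold 1 gene of each type. Mir15a (chromosome 14, 61632027 to 61632110) and Mir16-1 (61631880 to 61631972) sit 54 bp apart on the minus strand within the noncoding gene Dleu2, the first in an intron and the second overlapping an annotated exon. Mir15b (chromosome 3, 69009772 to 69009835) and Mir16-2 (69009902 to 69009996) sit 66 bp apart on the plus strand in introns of Smc4, which encodes a condensin subunit. Mir497 (chromosome 11, 70234717 to 70234800) and Mir195a (70235042 to 70235135) sit 241 bp apart on the plus strand. Mir322 (chromosome X, 53054255 to 53054349, minus strand) and Mir195a overlap no other annotated gene, and Mir497 overlaps Mir497b on the opposite strand.

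Counts are reads on a gene's own strand and join both arms of a hairpin. They summed to 3017058 over all microRNA genes in replicate 1 and 3209361 in replicate 2, out of 8491339 and 9289252 reads. CPM is a gene's count scaled to a sum of 1000000. The mature 5p strands are 21 or 22 nt long, so levels were compared without division by hairpin length, and dividing by it left the order of the 7 genes as it was. Reads placed at several loci, 40.3% and 39.0% of reads, are outside all gene counts. Intervals cover counting error only. They can be too narrow even for that, because PCR reads without molecular identifiers are not independent molecules.

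A minimum of 10 counts in each library was reached by all 7 members, against 395 of all 2202 counted genes (17.9%), called detected here. Together they held 0.371% ± 0.167 of microRNA gene counts (SD, n = 2), with 7615 counts in replicate 1 and 15686 in replicate 2. Their median level was 512 CPM, against 101 CPM over the 395 detected genes. By mean level they stood between rank 98 and rank 223. The family's share and the levels of Mir16-1 and Mir16-2 leave out reads that fit both of these genes. In the intact cortex, fewer cells of a type and less RNA per cell cannot be told apart.

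**Figure D1:**
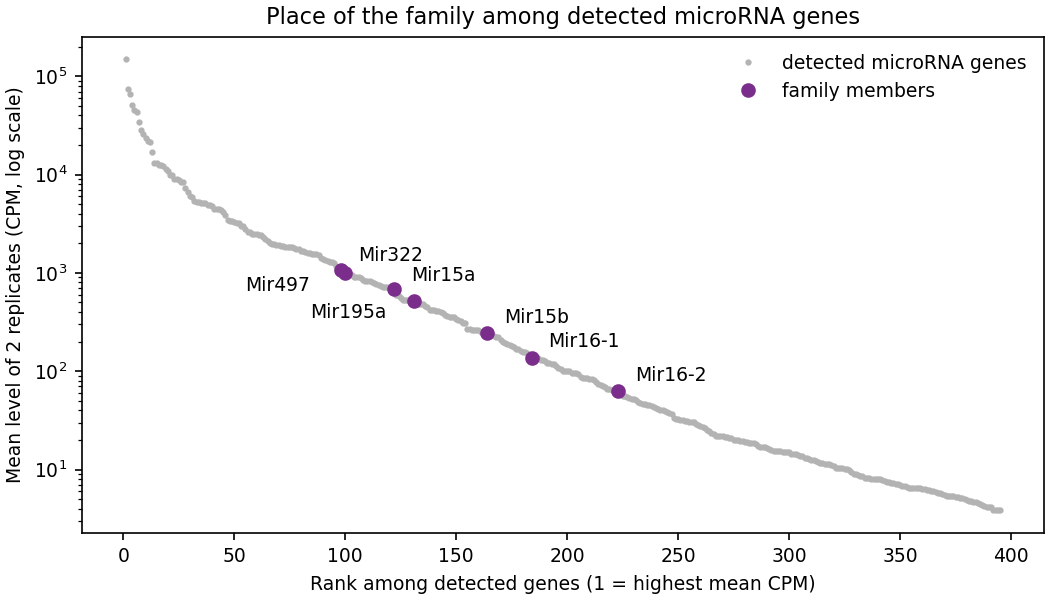
Mean CPM of 2 replicates (log scale) against rank for the 395 detected microRNA genes in grey, with the 7 family members in purple. Mir497 at rank 98 and Mir322 at rank 100 lead the family, and Mir16-2 at rank 223 closes it.

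Mir322 was the leading member in replicate 1 and Mir497 in replicate 2. Mir322, the X-linked member, had 3179 and 3018 counts in replicates 1 and 2, which is 1054 CPM (95% Clopper-Pearson interval 1017 to 1091) and 940 CPM (907 to 975). Its mean was 997 ± 80.1 CPM (SD, n = 2), so its libraries lay close together. It supplied 41.7% of the family's counts in replicate 1 and 19.2% in replicate 2.

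Mir497, a Mir15-type gene, had 1195 and 5602 counts, or 396 CPM (374 to 419) and 1746 CPM (1700 to 1792), in replicates 1 and 2. Its mean of 1071 ± 954 CPM (SD, n = 2) describes neither library. Mir195a, its Mir16-type neighbour, had 1070 and 2151 counts, or 355 CPM (334 to 377) and 670 CPM (642 to 699), with a mean of 512 ± 223 CPM. Both genes were higher in replicate 2.

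At the Dleu2 locus, named for a region lost in human leukaemia, Mir15a and Mir16-1 behaved unequally. Mir15a had 833 and 3486 counts, or 276 CPM (258 to 295) and 1086 CPM (1050 to 1123), in replicates 1 and 2, with a mean of 681 ± 573 CPM (SD, n = 2). Mir16-1 had 355 and 504 counts, or 118 CPM (106 to 131) and 157 CPM (144 to 171), with a mean of 137 ± 27.8 CPM. The gap in counted reads between libraries was thus wide for Mir15a and small for Mir16-1.

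The Smc4 locus gave the lowest summed level by counted reads, at 307 ± 26.6 CPM (SD, n = 2). Mir15b had 740 and 781 counts, or 245 CPM (228 to 264) and 243 CPM (227 to 261), in replicates 1 and 2. Its mean of 244 ± 1.36 CPM had the smallest SD of the 7 members. Mir16-2 had 243 and 144 counts, or 80.5 CPM (70.7 to 91.3) and 44.9 CPM (37.8 to 52.8), and with 62.7 ± 25.2 CPM it was the lowest member in both libraries.

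**Figure D2:**
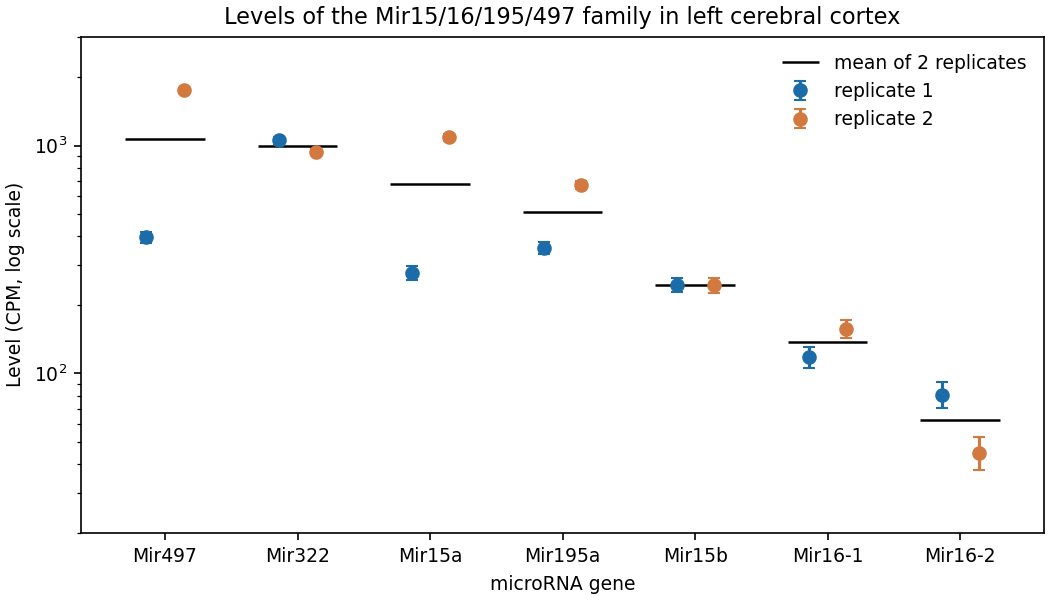
CPM (log scale) of each member in replicate 1 (blue) and replicate 2 (orange), with 95% Clopper-Pearson intervals of counting error as bars and the mean as a black line. Mir497 and Mir15a are far apart between libraries (396 and 1746 CPM, 276 and 1086 CPM), while Mir15b stands at 245 and 243 CPM.

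In order of mean level by counted reads the members ran Mir497, Mir322, Mir15a, Mir195a, Mir15b, Mir16-1 and Mir16-2. The neighbours within the first 4 did not differ beyond the spread between libraries, since their ranges overlapped and their order turned between replicates. Mir322 exceeded Mir15a 3.82-fold in replicate 1, and the ratio was 0.866 in replicate 2. From Mir195a downward, each gene exceeded the next in both libraries with no overlap of ranges, by 1.45-fold and 2.75-fold for Mir195a over Mir15b, 2.08-fold and 1.55-fold for Mir15b over Mir16-1, and 1.46-fold and 3.5-fold for Mir16-1 over Mir16-2 in replicates 1 and 2.

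The 2 lowest members by counted reads were those whose mature 5p strand is the same. Their hairpins are printed with the longest shared run in capitals, because reads inside it fit both places.
Mir16-1 hairpin (GRCm38.p6, chromosome 14, minus strand): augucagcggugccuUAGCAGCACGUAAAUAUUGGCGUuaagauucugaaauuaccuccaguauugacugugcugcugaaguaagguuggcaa
Mir16-2 hairpin (GRCm38.p6, chromosome 3, plus strand): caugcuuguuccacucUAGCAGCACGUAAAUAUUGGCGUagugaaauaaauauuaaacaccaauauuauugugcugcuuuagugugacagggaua

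The run is 23 nt long and holds the whole 22 nt of mmu-miR-16-5p. The 3p strands of both genes each occurred in 1 counted hairpin. For the other 5 members, the longest run shared with a counted hairpin at another place was 12 to 16 nt, the longest being that of Mir195a with Mir195b. Mir497b, which covers Mir497 on the opposite strand of the same place, is left aside in this. Reads that fit several loci are a class apart in the deposited tables. Reads inside the run, whole mmu-miR-16-5p reads among them, are thus outside the counts of Mir16-1 and Mir16-2. These counts are no measure of the level of either gene, and their place in the order holds only for counted reads. The tables do not divide that class by gene, and its part in these levels was not tested. Summed, the Mir16 genes had 598 and 648 counts, or 200.1 ± 2.62 CPM (SD, n = 2).

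Within each of the 3 paired loci, the Mir15-type gene had more counts than its Mir16-type neighbour, and the ratio was larger in replicate 2. These ratios compare genes inside a library, so library size does not enter. Mir15a exceeded Mir16-1 by 2.35-fold (95% interval 2.07 to 2.66) in replicate 1 and 6.92-fold (6.30 to 7.61) in replicate 2. Mir15b exceeded Mir16-2 by 3.05-fold (2.63 to 3.53) and 5.42-fold (4.53 to 6.52). Mir497 exceeded Mir195a by 1.12-fold (1.03 to 1.21) and 2.60-fold (2.48 to 2.74). The counting intervals of replicates 1 and 2 did not overlap at any of the 3 loci. By type, the Mir15-type genes summed to 917 and 3075 CPM and the Mir16-type genes to 553 and 872 CPM. The difference in the Mir15-type sum came from Mir497 and Mir15a, since Mir15b stood at 245 and 243 CPM, and the sum does not describe each gene of the type. The ratios over Mir16-1 and Mir16-2 and the Mir16-type sum carry the limit of shared reads. The ratio over Mir195a rests on genes that share no stretch of 20 nt with a hairpin at another place.

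**Figure D3:**
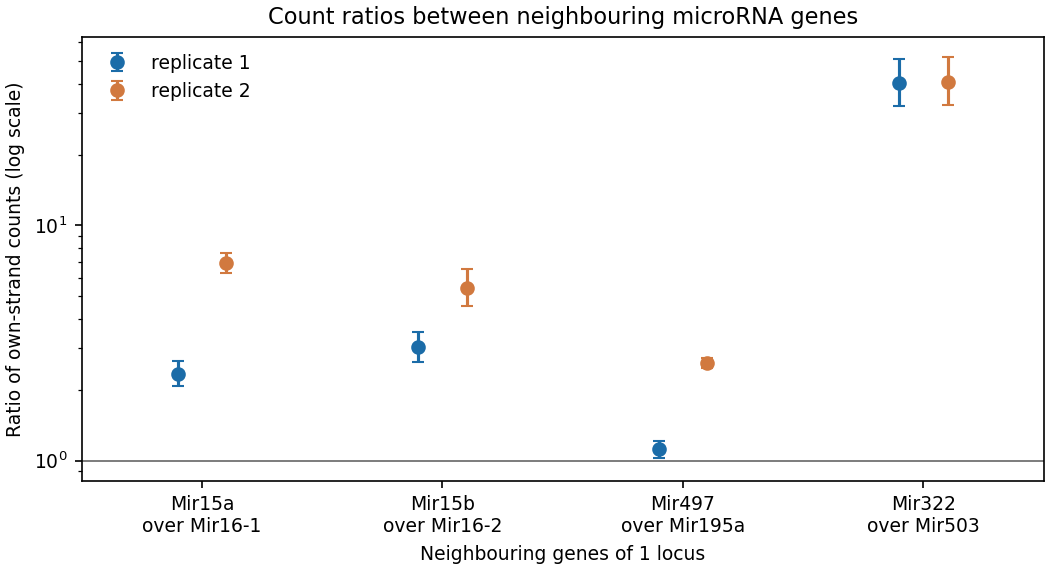
Ratio of own-strand counts (log scale) between neighbouring genes of 1 locus in replicate 1 (blue) and replicate 2 (orange), with 95% exact binomial intervals as bars. The ratio is larger in replicate 2 at the 3 paired loci (for example 1.12 and 2.60 for Mir497 over Mir195a) and stands at 40.2 and 40.8 for Mir322 over Mir503.

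Mir322 belongs to a cluster on the X chromosome whose other genes had fewer counted reads. Mir503, 200 bp away, had 79 and 74 counts, so that Mir322 exceeded it 40.2-fold (32.2 to 51.0) in replicate 1 and 40.8-fold (32.4 to 52.1) in replicate 2. Its mature 5p strand starts with a related seed that ends in G in place of A.
mmu-miR-503-5p: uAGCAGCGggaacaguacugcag
Mir351 averaged 423 ± 62.6 CPM (SD, n = 2) and Mir542 59.4 ± 17.8 CPM, 901 and 4767 bp from Mir322. Mir450b had 8 and 8 counts, Mir450-2 had 1 and 4, and Mir450-1 had 0 in both libraries, which allows up to 0.994 and 0.935 CPM of counted reads. Reads that fit several loci are outside the counts of this cluster too, so these limits do not bound the level of a gene.

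Mir497 has a partner on the opposite strand, and the strand columns show what that does to its count. Mir497b (chromosome 11, 70234692 to 70234816, minus strand) had 0 counts on its own strand. Its opposite-strand column held 1195 and 5602 counts in replicates 1 and 2, the same numbers as the own-strand column of Mir497. In the column that joins both strands Mir497 stood at 0 in both libraries, since reads over genes on both strands are called ambiguous there. The same held for 31 of the 742 genes with any own-strand count, all of which overlap a microRNA gene on the other strand. The other 6 members had equal counts in the own-strand and joined columns and 0 on the opposite strand.

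Other genes with the family's seed had no counted reads. By RefSeq, 11 counted genes carry AGCAGCA at bases 2 to 8, and the 4 that are not members (Mir195b on chromosome 2, Mir6342, Mir6353 and Mir6419) had 0 counts in both libraries, as did 1460 of all 2202 counted genes. None of these 4 shares 20 nt with another counted hairpin, and multiply placed reads are outside the counts. A further 3 genes carry the same letters shifted to bases 1 to 7, shown in capitals.
mmu-miR-103-3p, from both Mir103-1 and Mir103-2: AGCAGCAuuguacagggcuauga
mmu-miR-107-3p: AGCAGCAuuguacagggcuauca

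These genes, which lie in introns of pantothenate kinase genes, held 0.335% ± 0.0741 of counts (SD, n = 2), beside 0.371% ± 0.167 for the family. Nearly all came from Mir107, with 11520 and 8934 counts and 3301 ± 732 CPM. Mir103-2 averaged 38.5 ± 4.18 CPM and Mir103-1 8.96 ± 5.62 CPM, and their shared mature strand carries the same limit as that of the Mir16 genes. Mir107 shares 24 nt with Mir103-2, so shorter reads in that stretch are outside its count too. The shares of these genes and of the family thus both leave out reads that fit several loci.

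Between the libraries, 6 of the 7 members differed by more than counting error, against 280 of 496 tested genes (56.5%) by the exact binomial test on TMM-scaled library sizes with Benjamini-Hochberg adjustment. TMM is a scaling that sets most genes level. The test compares 2 libraries and not conditions, and among the 126 tested genes at the members' range of mean levels the share was 82.5%, so a count of 6 of 7 lies near that of genes at like levels. Of the members, 3 were called higher in replicate 1 (30.6% of tested genes) and 3 in replicate 2 (25.8%). Over all tested genes, 152 calls were toward replicate 1 and 128 toward replicate 2. With library totals in place of TMM, the members' calls were 2 toward replicate 1 and 4 toward replicate 2, and those of all genes 102 and 180. The median log2 ratio of all tested genes was -0.22 with library totals and 0.0090 with TMM, and directions are given relative to TMM.

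Mir497 had a log2 ratio, replicate 1 over replicate 2, of -1.91 (95% interval -2.0 to -1.82), a 3.76-fold difference. Mir15a followed at -1.75 (-1.86 to -1.64; adjusted p = 5.6e-266, exact binomial test), a 3.36-fold difference. Both are Mir15-type genes, higher in replicate 2, and they ranked 5th and 7th by absolute ratio among the 126 genes at the members' levels.

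Mir195a was also higher in replicate 2, at -0.69 (-0.80 to -0.58; adjusted p = 3.2e-38, exact binomial test). Toward replicate 1, Mir16-2 stood at 1.07 (0.77 to 1.38; adjusted p = 2.2e-12, exact binomial test) and Mir322 at 0.39 (0.32 to 0.47; adjusted p = 4.6e-26, exact binomial test). Mir15b was at 0.24 (0.093 to 0.39; adjusted p = 0.0028, exact binomial test), a call that library totals removed (0.011, adjusted p = 0.92). Mir16-1 did not pass, at -0.19 (-0.39 to 0.011; adjusted p = 0.10, exact binomial test), and was called with library totals (-0.42, adjusted p = 8.0e-05). The counts of Mir16-1 and Mir16-2 leave out reads inside their shared run. Their ratios and calls thus hold only for counted reads and do not measure a difference in the level of either gene.

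The members thus did not move one way between the libraries. Their median log2 ratio was -0.19, against 0.0090 over all tested genes, and 4 of 7 were higher in replicate 2, against 248 of 496. Called and over 2-fold apart were Mir497, Mir15a and Mir16-2, against 84 of 496 tested genes (16.9%). With library totals Mir16-2, whose counts leave out reads that fit both Mir16 genes, stood at 0.84 on the log2 scale, under 2-fold. The biological coefficient of variation between the libraries was 36.7% over tested genes. Despite its name it may hold technical spread alone, since the 2 libraries carry the same donor record.

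**Figure D4:**
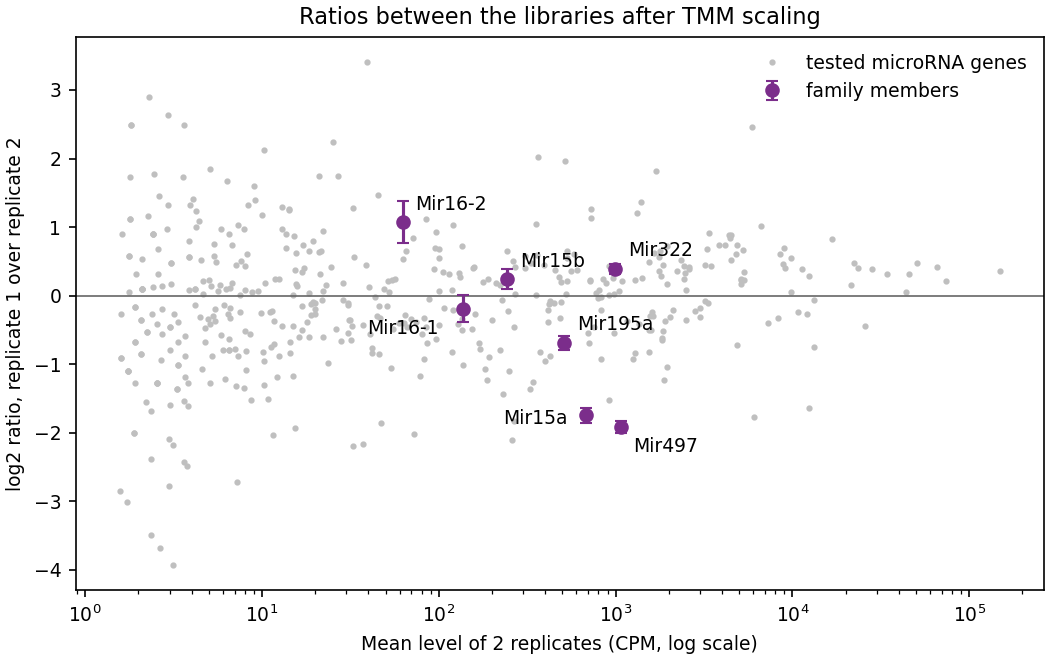
Log2 ratio of replicate 1 over replicate 2 after TMM scaling against mean CPM (log scale) for 493 tested microRNA genes in grey (3 with 0 counts in 1 library are left out), with the 7 members in purple and 95% counting intervals as bars. Mir497 at -1.91 and Mir15a at -1.75 lie toward replicate 2, Mir16-2 at 1.07 toward replicate 1, and the other 4 members between -0.69 and 0.39. Mir16-1 and Mir16-2 are placed by counted reads only.

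Markers of cell types in and around the cortex also differed between the libraries. Mir126a, an endothelial gene, had 5714 and 8835 CPM in replicates 1 and 2 and was called toward replicate 2. The 3 oligodendrocyte genes were called the same way, with summed levels of 3662 and 5626 CPM. Among them Mir219a-1 rests on 3 and 17 counts and is below the minimum for detection. The 2 smooth muscle and pericyte genes were higher in replicate 1 (6298 and 3730 CPM summed), and so were all 5 microglia and immune genes (2844 and 2401 CPM), though by library totals Mir146 turned, with 714 and 717 CPM. The 3 red blood cell genes summed to 51.0 and 75.4 CPM, and of them Mir451a was called, toward replicate 2. The 9 neuron genes, markers of the labelled tissue, summed to 63072 and 64164 CPM, led by Mir132 with 35151 and 33205 CPM. The 3 Mir124a genes among them, the best known neuronal microRNA genes, had 9 counts or fewer in each library. They share a stretch of 32 nt with one another, so reads inside it are outside these counts, as for the Mir16 genes, and the low counts are no measure of their level. Of the neuron genes, 4 were called toward replicate 1 and 2 toward replicate 2, and by library totals Mir137 turned, with 5338 and 5342 CPM. Of the 5 striated muscle genes, Mir206 had 82 and 110 counts, or 27.2 and 34.3 CPM, and was not called. The other 4, Mir1a-1, Mir1a-2, Mir133a-1 and Mir133a-2, were at 0 and share 28 or 31 nt with another counted hairpin, so reads in those stretches are outside their counts. Mir219a-1, Mir219a-2, Mir128-1, Mir128-2, Mir138-1, Mir138-2 and Mir146 share 21 to 24 nt with another counted hairpin. Reads inside those stretches are outside the counts of these genes as well. The calls of all these markers stand beside 56.5% of all tested genes called, and 82.5% of those at the family's levels. Several markers, Mir126a and Mir132 among them, lie above those levels, so neither share is a like comparison for them. At such counts small ratios are called too, as for Mir128-1 at a log2 ratio of -0.064 (adjusted p = 1.1e-09, exact binomial test). The part of these cell types in the family's levels was not tested.

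Other microRNA genes tied to the cell cycle were counted beside the family. The 15 genes of the Mir17-92 and Mir106b-25 clusters and their relative on the X chromosome, known from dividing cells, held 0.372% ± 0.0362 of counts (SD, n = 2), with 9 detected. The 6 genes of the Mir34 and Mir449 seed, also known as brakes on the cell cycle, held 0.204% ± 0.0309, with 4 detected. Reads that fit several loci are outside the counts of both lists, so these shares and detected genes hold only for counted reads. How many such reads belong to these genes was not tested. Between libraries, 5 of 11 tested genes of the first list were called (2 toward replicate 1 and 3 toward replicate 2), and 3 of 4 of the second (1 and 2), beside 280 of 496 tested genes (56.5%). Mir93 was highest in the first with 1850 and 1689 CPM, and Mir34a in the second with 1329 and 1914 CPM in replicates 1 and 2.

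Likeness of level over the 2 libraries was measured as the distance between genes in log2(CPM + 1). Mir381, of the imprinted Dlk1-Dio3 cluster, was nearest to both Mir497 (distance 0.32) and Mir15a (0.70), with 419 and 1404 CPM in replicates 1 and 2. Mir346 was next for Mir497 (0.71), and the member Mir195a was next for Mir15a (0.78). Mir322 was nearest to Mir455 (0.12) and Mir3099 (0.17), Mir15b to Mir350 (0.068) and Mir20a (0.21), and Mir195a to Mir1224 (0.26) and Mir1843b (0.42). Mir16-1 was nearest to Mir3059 (0.12) and Mir375 (0.23), and Mir16-2 to Mir142 (0.33) and Mir9-3 (0.34). For Mir16-1 and Mir16-2 this is likeness of counted reads only, since reads inside their shared run are left out. With 2 libraries this describes levels and not a pattern across conditions.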

How the data were processed

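The authors deposited 1 table of read counts per microRNA gene for each library, made from 1 FASTQ file on mm10 with GENCODE M21, per the descriptions deposited beside the tables. No aligner or counter is named there or in the labels. The counts carry no normalization and have columns for either, own and opposite strand, with roles read from the values. The 4 rows for unmapped, multiply placed, unassigned and ambiguous reads were left out of library sizes. Of all reads in replicates 1 and 2, 18.5% and 20.8% were unmapped, 40.3% and 39.0% multiply placed and 5.59% and 5.69% unassigned.

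CPM used own-strand sums. Genes with at least 10 counts over both libraries were tested by a two-sided exact binomial test on TMM sizes (edgeR 4.0.16, R 4.3.3), called at adjusted p under 0.05. The test was checked on simulated data that held counting error only, so the check cannot show how it behaves under wider spread between libraries. DESeq2 1.42.0 gave alternative size factors. Names and positions came from M21 on GRCm38. Stretches of at least 20 nt counted as shared between hairpins. Python 3.11.15 with scipy 1.17.1 was used. Named genes were the members, microRNA genes within 10000 bp, genes with the seed at bases 2 to 8 or 1 to 7, and the 2 genes nearest in level to each member, beside fixed lists. Genes outside these rules (Mir93, Mir34a and the markers) were named from the lists after their values were seen. Members and lists were chosen with earlier results of these data known.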

Additional observations from a re-analysis of the deposited data

How the results depend on the processing

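The count of members detected (7) and of members called between libraries (6) differed by at most 1 under the alternatives run, with 6 detected in the either-strand column, where Mir497 is at 0 and Mir15b averages 262 CPM. The 2 members with a shared stretch were 2 at 18 and at 22 nt. The family's share was 0.371%, with 0.252% to 0.489% when either replicate was left out, 0.282% in the either-strand column and 0.263% without Mir497, an alternative chosen after seeing the data. With all reads as denominator it was 0.129%, since the denominator then holds reads outside microRNA gene counts. The call of Mir15b was lost with library totals, and Mir16-1 was called with library totals and in the either-strand column (log2 ratio -0.24, adjusted p = 0.035 by the exact binomial test). No member changed direction under DESeq2 size factors, library totals, either filter or, Mir497 aside, the either-strand column. Division by hairpin length, also chosen after seeing the data, left the order of levels as it was. The comparison of libraries has no value without either replicate. No paired analysis was possible because the series has 1 group. Mir16-2 had the fewest counts of the members, 243 and 144, and these leave out reads that also fit Mir16-1.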
